A study of Homo sapiens with 16 samples.

Results

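The RAB genes encode small GTPases that switch between a GDP-bound and a GTP-bound state and direct the budding, transport, tethering and fusion of membrane vesicles. Exchange factors load RAB proteins with GTP on the right membrane, GTPase-activating proteins switch them off, and effectors such as motors and tethers bind the GTP-bound form. In lymphoid cells they serve, among other routes, receptor recycling, delivery to lysosomes, cytokine secretion and granule release.

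The RAB genes were chosen by name alone: a gene-level probe set counted as a member when its only gene symbol was RAB, a number and at most a letter. This gave 59 genes, held by 62 probe sets, of 18395 genes with a probe set of their own. RNA came from L1236, a human cell line established from Hodgkin lymphoma, and was hybridised to Affymetrix arrays that cover whole transcripts. All cells were spin-infected with a retrovirus carrying a short hairpin RNA against RELB, a subunit of the NF-kB transcription factors, and grew in RPMI with fetal bovine serum. Cells labelled induced received doxycycline, which switches the hairpin on, and cells labelled uninduced did not. Each of the 8 array titles also carries a B code (B_1 or B_4) and ends in 1 or 4. What these stand for is not stated. Each induction label has 4 arrays, 2 of each B code. In both groups, replicates 1 to 4 are the arrays titled B_1 with last number 1, B_1 with 4, B_4 with 1 and B_4 with 4. The 16 samples hold these arrays once as gene-level and once as exon-level summaries. Separate cultures are not mentioned for the 4 arrays of either label, so p-values here reflect the spread between arrays, which may be technical. No array without the hairpin virus and none with doxycycline alone was analysed here.

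The targeted gene did not bear out the labels: RELB averaged 7.25 ± 0.11 in arrays labelled induced and 7.40 ± 0.13 in arrays labelled uninduced (log2 signal, SD, n = 4 each), a difference of -0.15 ± 0.09 (SE of the limma fit, adjusted p = 0.212; exact permutation test, two-sided, p = 0.171, with 0.0286 the smallest p possible). Under median centring of the arrays the difference was 0.0019. Directions below therefore rest on the labels alone, and whether the labels were exchanged or the groups hold different cells was not tested. Of 10 Hodgkin cell markers, 4 were higher and 4 lower in the arrays labelled induced, where 27.1% of all tested genes were higher and 28.4% lower. TNFRSF8, the CD30 antigen typical of the disease, averaged 11.6 ± 0.10 in arrays labelled induced and 6.89 ± 0.21 in arrays labelled uninduced. TRAF1 (difference 2.70 ± 0.15, SE), JUNB (0.76 ± 0.12) and IRF4 (0.75 ± 0.08) were higher too. Others went the opposite way: BATF3 averaged 6.62 ± 0.32 in arrays labelled induced and 10.93 ± 0.10 in arrays labelled uninduced, and FSCN1 (-1.84 ± 0.12) and CCL22 (-1.75 ± 0.11) were lower too. B-cell markers averaged 8.61 to 8.89 per array labelled induced and 6.23 to 6.48 per array labelled uninduced, over 5 genes. Of the 4 that were tested, 3 were higher in the arrays labelled induced and 1 did not pass. CD79A averaged 11.04 ± 0.26 in arrays labelled induced and 5.73 ± 0.13 in arrays labelled uninduced. CD79B, which did not pass, averaged 6.27 ± 0.19 in arrays labelled induced and 6.32 ± 0.41 in arrays labelled uninduced. The 7 T-cell markers averaged 4.85 to 5.07 in arrays labelled induced and 4.51 to 4.69 in arrays labelled uninduced. The 6 myeloid markers averaged 4.96 to 5.19 in arrays labelled induced and 4.83 to 5.07 in arrays labelled uninduced, and the 7 fibroblast markers 4.94 to 5.11 in arrays labelled induced and 5.18 to 5.31 in arrays labelled uninduced. The 5 epithelial markers averaged 6.39 to 6.56 in arrays labelled induced and 5.82 to 6.13 in arrays labelled uninduced. These list means hide single markers that differed strongly and in opposite directions: FAP (-5.27 ± 0.17) against COL6A3 (3.34 ± 0.18) among the fibroblast markers, besides ZAP70 (2.09 ± 0.09) among the T-cell and CDH1 (2.32 ± 0.11) among the epithelial ones. FAP averaged 3.29 in arrays labelled induced and COL6A3 averaged 4.31 in arrays labelled uninduced. Both means are under the limit of the low-signal filter described below, so the sizes of the FAP and COL6A3 differences are uncertain. The part of these marker differences in the results below was not tested.

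Values are log2 signals after RMA, so a difference of 1 is a 2-fold difference. Signals of different genes come from different probes and are not compared with each other. After genes in the lowest 25% of mean signal were left out, 51 of the 59 RAB genes were tested among 13796 genes with limma. Adjusted p-values are from that fit unless stated otherwise (Benjamini-Hochberg over all tested genes, threshold 0.05). Those within B codes and of the interaction come from a second limma model, given with the processing. Those without the filter, at exon level or under alternative settings come from limma fits of their own. A gene is called higher or lower only when it passed. The 8 RAB genes under the filter are described at the end of the role groups.

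Upstream sequence was available for 46 of the 59 genes in the RefSeq promoter table (GRCh38.p14). It is shown for the 2 largest rises and the 2 largest falls among those genes, in the probe set kept for each gene. The choice of falls is uncertain. RAB3C had an induced mean of 4.09, under the low-signal filter limit of 4.78, so the size of its fall is uncertain. RAB13, which also has upstream sequence, differed by -4.42 in its other gene-level probe set, with an induced mean of 4.30, also under that limit. Each line gives the 250 bases before the annotated start, 5′ to 3′ on the gene's strand. Capitals mark matches, on either strand, to the GC box GGGCGG, the CCAAT box CCAAT, the TATA box TATAAA or the NF-kB consensus. RAB27A lies on the minus strand at chr15:55319124-55319373, RAB14 on the minus strand at chr9:121201870-121202119, RAB30 on the minus strand at chr11:83071898-83072147 and RAB3C on the plus strand at chr5:58582825-58583074.
RAB27A: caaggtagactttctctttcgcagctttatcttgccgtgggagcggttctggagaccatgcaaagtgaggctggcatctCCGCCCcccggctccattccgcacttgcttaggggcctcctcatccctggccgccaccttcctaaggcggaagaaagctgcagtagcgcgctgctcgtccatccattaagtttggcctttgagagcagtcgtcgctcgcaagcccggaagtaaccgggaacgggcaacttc
RAB14: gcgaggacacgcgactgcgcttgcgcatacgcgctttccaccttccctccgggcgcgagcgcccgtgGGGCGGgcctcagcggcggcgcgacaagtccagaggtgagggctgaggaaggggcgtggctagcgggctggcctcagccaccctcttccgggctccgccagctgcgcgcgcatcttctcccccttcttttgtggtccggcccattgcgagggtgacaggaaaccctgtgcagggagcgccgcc
RAB30: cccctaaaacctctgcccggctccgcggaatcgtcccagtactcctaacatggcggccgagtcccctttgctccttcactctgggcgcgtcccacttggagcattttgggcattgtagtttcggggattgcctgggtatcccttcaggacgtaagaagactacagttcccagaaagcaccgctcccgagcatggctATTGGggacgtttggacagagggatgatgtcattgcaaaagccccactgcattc
RAB3C: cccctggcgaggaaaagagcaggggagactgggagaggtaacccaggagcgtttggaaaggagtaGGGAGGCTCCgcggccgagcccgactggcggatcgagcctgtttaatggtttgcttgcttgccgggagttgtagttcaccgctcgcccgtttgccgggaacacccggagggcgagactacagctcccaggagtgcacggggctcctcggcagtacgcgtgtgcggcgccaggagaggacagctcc

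The RAB27A and RAB14 windows each hold 1 GC box, the RAB30 window 1 CCAAT box and the RAB3C window 1 NF-kB consensus match. Over the full promoter windows of 300 bases, which add 50 bases after the start, the NF-kB consensus was found in 4 of 46 RAB promoters (8.70%) and in 13.3% of 10830 tested genes with an entry. It was found in 0 of 11 RAB genes called higher and in 1 of 13 called lower. The GC box was found in 37 RAB promoters (80.4%) and in 67.3% of all, with overlapping matches counted, and the TATA box in 2 (4.35%) and in 6.69% of all. The CCAAT box was found in 12 (26.1%) and in 36.1% of all, the AP-1 motif TGANTCA in 2 (4.35%) and in 4.66% of all, and the E-box CACGTG in 6 of the 46 and in 9.89% of all, all searched on both strands. The median count of CpG was 27 in RAB promoters and 25 over all tested genes with an entry. The 46 RAB promoters include those of RAB3B, RAB4A, RAB25, RAB27B, RAB31, RAB41 and RAB42, which were under the filter. Among these, RAB31 holds an NF-kB consensus match. The comparison holds tested genes only, so the 2 sets were not chosen alike. A match describes letters only.

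RAB genes differed in both directions by the induction label, as did the tested genes as a whole. In the arrays labelled induced, 14 of the 51 tested genes were higher and 17 lower, while 20 did not reach the threshold. In all 60.8% were called, against 55.5% of all tested genes, a share near that background. Separately by direction, 27.1% of all tested genes were called higher and 28.4% lower. A difference of at least 2-fold was called for 13 RAB genes (25.5%), against 16.5% of all tested genes. Of these 13, 6 were higher (6.9% of all tested genes) and 7 lower (9.62% of all). The 7 lower include RAB3C, which passed the low-signal filter only through the arrays labelled uninduced, so the size of its difference is uncertain. For 30 RAB genes (58.8%) the values of the 2 labels were fully apart, as for 49.8% of all tested genes. The median difference was -0.08 over the 51 RAB genes and 0.02 over all tested genes, and the median absolute difference was 0.41 over the RAB genes and 0.30 over all. Median centring of the arrays moved the median of all tested genes to 0.17 and the higher share of all calls to 65.1%, against 48.9% without it. The RAB calls under that centring were 16 higher and 16 lower.

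**Figure D1:**
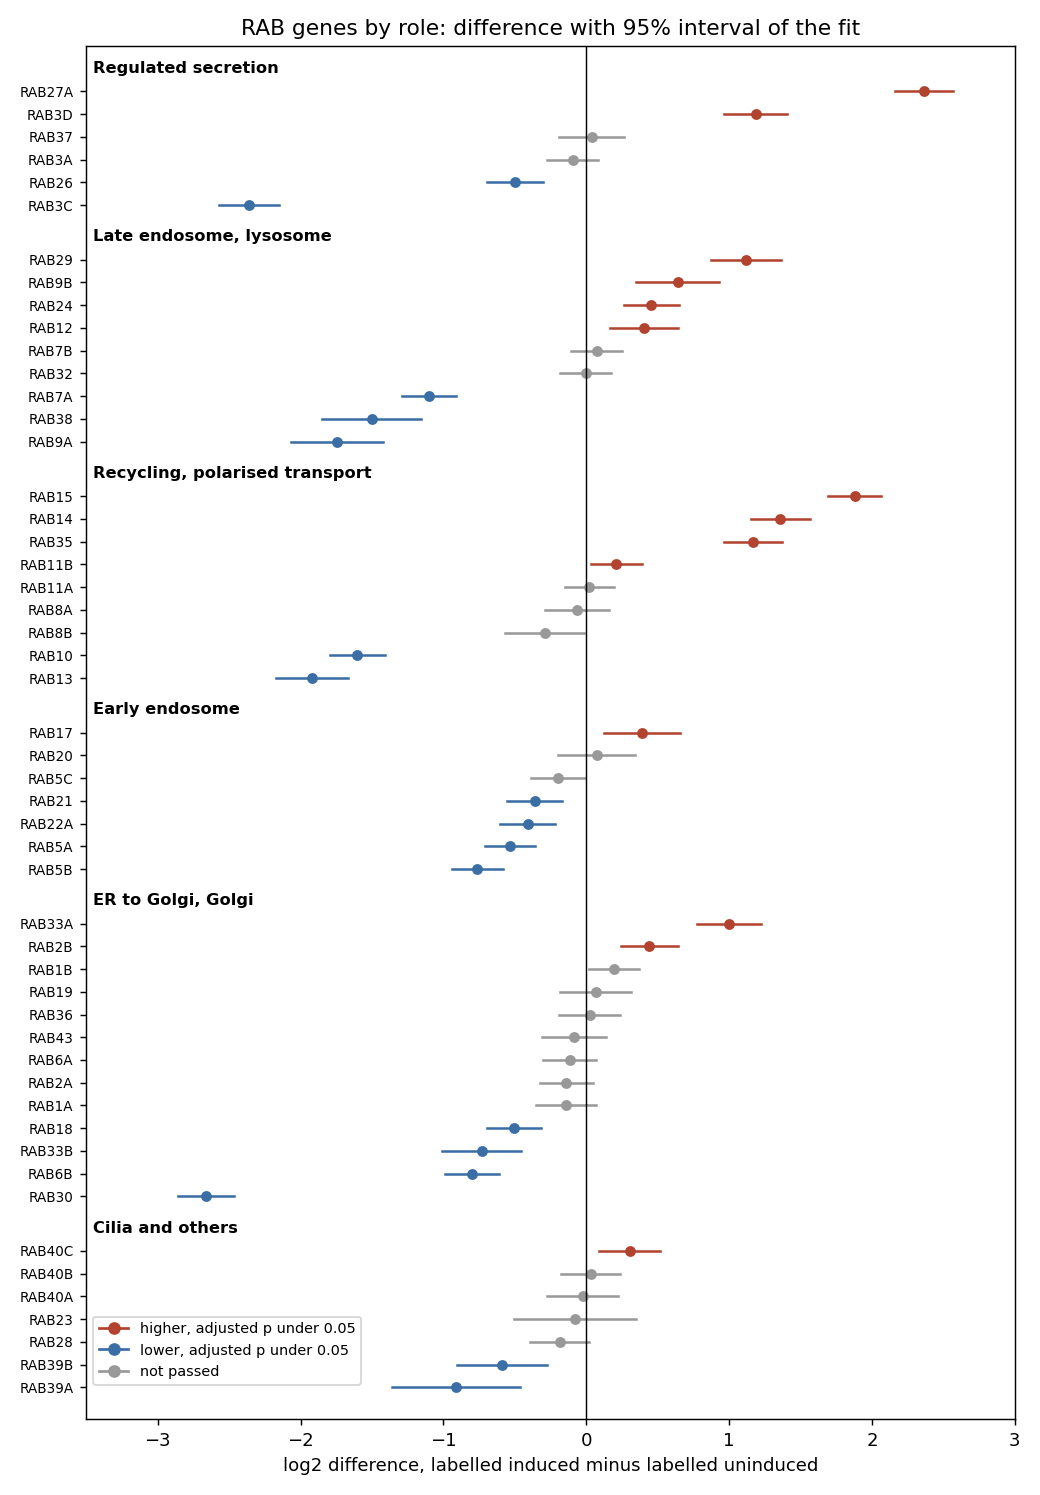
Log2 difference of each tested RAB gene, arrays labelled induced minus arrays labelled uninduced (x axis), by role group (rows), with the 95% interval of the limma fit from 4 arrays a group as a bar. Each group except the early endosome and the last one holds genes at least 2-fold apart, and rises and falls stand side by side in every group, from RAB27A at 2.37 to RAB30 at -2.66.

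Regulated secretion had 6 tested genes: 2 were higher, 2 lower and 2 not called. Beside this and the role-group counts below, 27.1% of all tested genes were higher, 28.4% lower and 16.5% called at 2-fold. With 6 to 13 tested genes a group, the counts are not read as traits of a route. RAB27A, which docks secretory granules and lysosome-related organelles at the plasma membrane, had log2 signals of 10.75, 10.47, 10.85 and 10.66 in arrays labelled induced, against 8.32, 8.36, 8.28 and 8.30 in arrays labelled uninduced (replicates 1 to 4 in both, as in all such lists below). All 4 arrays labelled induced lay above every uninduced one, and the difference was 2.37 ± 0.09 (SE, 5.16-fold, adjusted p = 4.16e-09). RAB3C, of the RAB3 group that acts in vesicle exocytosis, went the other way. It had 4.04, 4.19, 4.01 and 4.10 in arrays labelled induced, against 6.62, 6.32, 6.52 and 6.33 in arrays labelled uninduced. The groups did not overlap, and the induced values were below the array medians (fitted difference -2.36 ± 0.10, adjusted p = 5.83e-09). RAB3C passed the filter only through the arrays labelled uninduced: its induced mean of 4.09 is under the filter limit of 4.78, so no fold is given.

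RAB3D, a RAB3 form of secretory granules, had 6.73, 6.82, 6.83 and 6.95 in arrays labelled induced, against 5.27, 5.88, 5.61 and 5.82 in arrays labelled uninduced. It was 2.28-fold higher without overlap (1.19 ± 0.10, adjusted p = 2.01e-06), opposite in sign to RAB3C. RAB26, which acts in granule maturation, fell by less (-0.50 ± 0.09, adjusted p = 0.000594), with 6.53 to 6.77 in arrays labelled induced and 7.06 to 7.22 in arrays labelled uninduced. RAB3A and RAB37 did not pass, with means of 6.08 and 5.29 in arrays labelled induced and of 6.17 and 5.25 in arrays labelled uninduced.

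**Figure D2:**
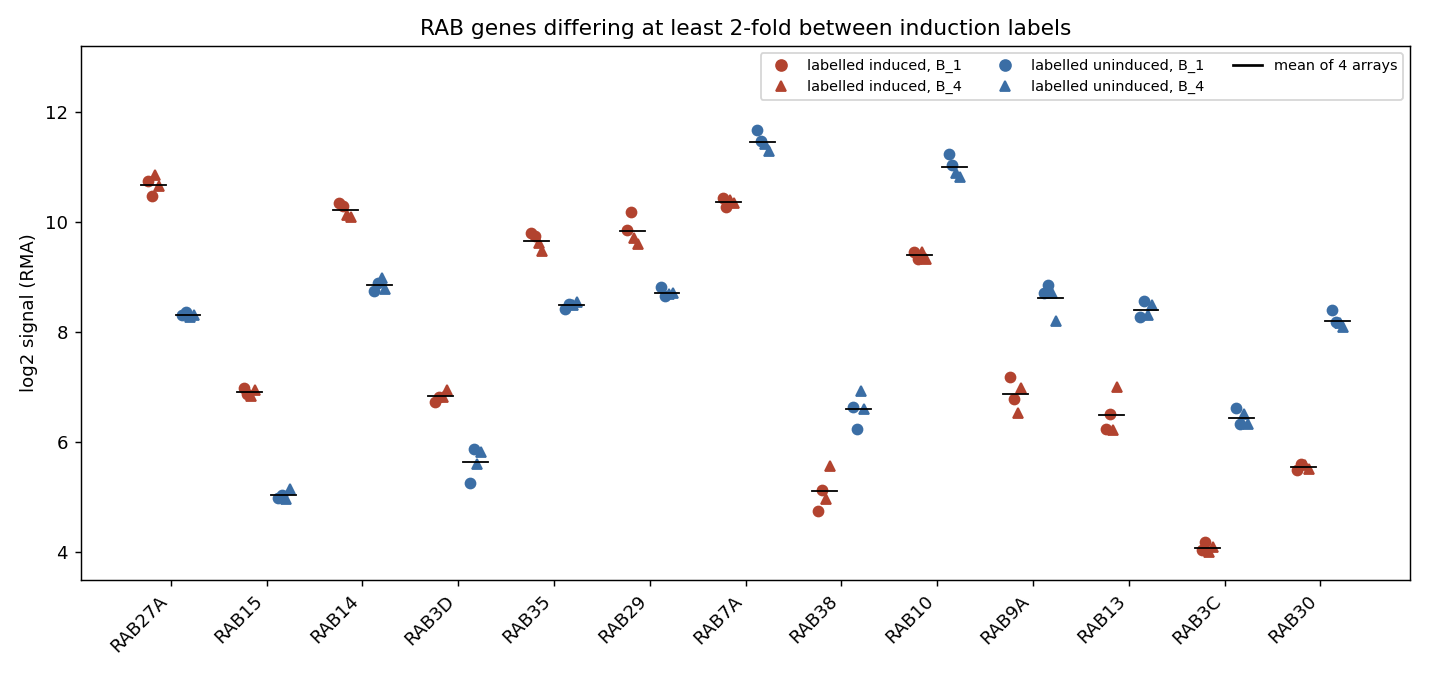
Log2 RMA signal (y axis) of the 13 RAB genes at least 2-fold apart, in each array labelled induced (red, left) and labelled uninduced (blue, right), circles for B_1, triangles for B_4 and a line at the mean of 4 arrays. The groups do not overlap for any of the 13 genes, nor for 49.8% of all tested genes. These 13 were chosen by their difference on the same arrays, so the lack of overlap is a description and no independent support. The closest values are those of RAB38, with 5.56 as the highest induced and 6.24 as the lowest uninduced value. RAB3C passed the low-signal filter only through its uninduced arrays.

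Among the 9 genes of late endosomes, lysosomes and related organelles, 4 were higher, 3 lower and 2 did not pass. RAB7A, which drives the maturation of late endosomes and their fusion with lysosomes, had 10.43, 10.27, 10.40 and 10.35 in arrays labelled induced, against 11.66, 11.48, 11.42 and 11.29 in arrays labelled uninduced. It was 2.15-fold lower without overlap (-1.10 ± 0.09, adjusted p = 1.09e-06). Another gene-level probe set of RAB7A averaged 5.15 in arrays labelled induced and 6.09 in arrays labelled uninduced. That difference of -0.94 is short of 2-fold, and over the alternative settings the RAB7A difference ran from -1.15 to -0.95. RAB9A, which returns mannose 6-phosphate receptors from late endosomes to the Golgi, had 7.18, 6.79, 6.53 and 6.98 in arrays labelled induced, against 8.70, 8.85, 8.71 and 8.20 in arrays labelled uninduced. It was 3.35-fold lower, again without overlap (-1.74 ± 0.14, adjusted p = 1.84e-06). RAB38, known for carrying enzymes to melanosomes and other lysosome-related organelles, had 4.75, 5.14, 4.97 and 5.56 in arrays labelled induced, against 6.65, 6.24, 6.93 and 6.61 in arrays labelled uninduced. All induced values lay under every uninduced one and under the array medians, with a difference of -1.501 ± 0.16 (2.83-fold lower, adjusted p = 1.08e-05).

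RAB29, a trans-Golgi and lysosome GTPase that recruits the kinase LRRK2, rose instead, with 9.86, 10.19, 9.71 and 9.60 in arrays labelled induced, against 8.82, 8.65, 8.69 and 8.71 in arrays labelled uninduced. The difference was 1.12 ± 0.11 (2.17-fold, adjusted p = 7.18e-06) and the groups did not overlap. RAB9B, the paralog of RAB9A, was higher where RAB9A was lower (0.64 ± 0.13, adjusted p = 0.00154), with means of 5.70 ± 0.29 in arrays labelled induced and 5.06 ± 0.14 in arrays labelled uninduced. RAB24, which acts in autophagy, averaged 8.77 ± 0.12 in arrays labelled induced and 8.31 ± 0.11 in arrays labelled uninduced (0.46 ± 0.09, adjusted p = 0.00102). RAB12, which acts in the lysosomal degradation of transferrin receptor, rose by 0.40 ± 0.11 (adjusted p = 0.0078), although its groups overlapped. RAB32, the close relative of RAB38, averaged 4.78 in both groups and did not pass, nor did RAB7B (5.24 in arrays labelled induced and 5.17 in arrays labelled uninduced).

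Recycling and polarised transport held the most 2-fold differences, 5 of 9 tested genes, where 16.5% of all tested genes had one. Of the 9 genes, 4 were called higher, 2 lower and 3 did not pass. RAB15, of recycling endosomes, had 6.99, 6.88, 6.84 and 6.95 in arrays labelled induced, against 4.98, 5.05, 4.96 and 5.14 in arrays labelled uninduced. It was 3.68-fold higher (1.88 ± 0.08, adjusted p = 1.26e-08), and the uninduced values were below the array medians. RAB14, which works between Golgi and endosomes, had 10.34, 10.28, 10.14 and 10.10 in arrays labelled induced, against 8.75, 8.90, 8.99 and 8.79 in arrays labelled uninduced. The groups did not overlap and the rise was 2.56-fold (1.36 ± 0.09, adjusted p = 4.09e-07). RAB35, of the fast recycling route, had 9.80, 9.74, 9.61 and 9.48 in arrays labelled induced, against 8.42, 8.51, 8.49 and 8.55 in arrays labelled uninduced, and was 2.24-fold higher without overlap (1.17 ± 0.09, adjusted p = 1.25e-06).

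RAB10 and RAB13 fell in the same group of genes. RAB10, known for moving glucose transporter vesicles in fat cells, had 9.46, 9.33, 9.45 and 9.34 in arrays labelled induced, against 11.24, 11.03, 10.89 and 10.83 in arrays labelled uninduced. It was 3.03-fold lower with no overlap (-1.60 ± 0.09, adjusted p = 7.03e-08). RAB13, which acts in the assembly of epithelial junctions, had 6.24, 6.51, 6.22 and 7.005 in arrays labelled induced, against 8.28, 8.56, 8.31 and 8.49 in arrays labelled uninduced. It was 3.78-fold lower (-1.92 ± 0.11, adjusted p = 1.27e-07). Another gene-level probe set that names RAB13 alone had a larger gap, with 4.10, 4.51, 4.37 and 4.21 in arrays labelled induced, against 8.61, 8.93, 8.82 and 8.52 in arrays labelled uninduced (fitted difference -4.42 ± 0.12, adjusted p = 2.99e-10). Its induced mean of 4.30 is under the filter limit, so no fold is given. The direction was shared, but the size of the RAB13 fall depends on the probe set. Whether both probe sets measure the same transcript was not tested.

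RAB11B, of recycling endosomes, was higher by 0.21 ± 0.08 (adjusted p = 0.043), with means of 8.97 ± 0.05 in arrays labelled induced and 8.76 ± 0.04 in arrays labelled uninduced. Leaving out 1 array ended this call for induced replicates 1, 2 and 4 and for each uninduced replicate (adjusted p between 0.0665 and 0.138). RAB11A averaged 9.90 ± 0.11 in arrays labelled induced and 9.88 ± 0.09 in arrays labelled uninduced and did not pass. RAB8A and RAB8B, which serve transport from the Golgi to the plasma membrane and to cilia, did not pass either and are described with the B codes.

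Early endosome genes had 4 of 7 lower, 1 higher and 2 not passing, with no difference of 2-fold. RAB5B, one of the RAB5 forms that drive early endosome fusion, had 7.75, 7.79, 7.42 and 7.48 in arrays labelled induced, against 8.54, 8.62, 8.22 and 8.10 in arrays labelled uninduced (-0.76 ± 0.08, 1.70-fold lower, adjusted p = 1.31e-05). The groups did not overlap, and within each label the B_4 values were the lower ones. RAB5A had 9.002, 8.88, 8.77 and 8.81 in arrays labelled induced, against 9.56, 9.43, 9.36 and 9.23 in arrays labelled uninduced, again without overlap (-0.53 ± 0.08, 1.45-fold lower, adjusted p = 0.000173). RAB5C averaged 9.78 ± 0.11 in arrays labelled induced and 9.98 ± 0.04 in arrays labelled uninduced and did not pass (adjusted p = 0.0728), although its groups did not overlap. RAB22A, also of early endosomes, fell by 0.41 on the log2 scale (SE 0.09, adjusted p = 0.00206), and RAB21, which carries integrins, fell by 0.36 (SE 0.09, adjusted p = 0.0045). Under median centring the RAB22A difference was -0.26 (adjusted p = 0.0274) and the RAB21 call was lost (-0.21, adjusted p = 0.0695). RAB17, known from epithelial transcytosis, was higher (0.39 ± 0.12, adjusted p = 0.0175) with overlapping groups. Dropping induced replicate 2 or 3, or uninduced replicate 1 or 2, ended the call (adjusted p between 0.0512 and 0.0697). RAB20 did not pass, with means of 5.05 in arrays labelled induced and 4.98 in arrays labelled uninduced.

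Of the 13 tested genes for ER to Golgi and Golgi transport, 4 were lower, 2 higher and 7 not called. RAB30, a Golgi GTPase, had 5.49, 5.60, 5.59 and 5.51 in arrays labelled induced, against 8.40, 8.19, 8.16 and 8.09 in arrays labelled uninduced. Its fall was the largest of the family in the tested probe sets kept for each gene (-2.66 ± 0.09, 6.33-fold lower, adjusted p = 1.22e-09), and the induced values were below the array medians. RAB33A, which is known from brain and lymphoid cells, had 8.90, 9.11, 8.70 and 9.11 in arrays labelled induced, against 7.84, 7.97, 8.07 and 7.95 in arrays labelled uninduced. The rise of 0.998 ± 0.10 (adjusted p = 9.48e-06) came just short of 2-fold, without overlap. RAB33B, its paralog and a partner of the autophagy protein ATG16L1, was lower (-0.73 ± 0.12, adjusted p = 0.000456), with means of 6.61 ± 0.25 in arrays labelled induced and 7.35 ± 0.14 in arrays labelled uninduced.

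RAB6B, a form of the Golgi GTPase RAB6 best known from neurons, was lower (-0.80 ± 0.08, adjusted p = 1.31e-05) with 5.05 to 5.33 in arrays labelled induced and 5.90 to 6.18 in arrays labelled uninduced. RAB18, of lipid droplets and the ER, fell by 0.51 (SE 0.08, adjusted p = 0.000413). RAB2B, which acts on Golgi and autophagosomes, rose by 0.44 ± 0.09 (adjusted p = 0.00148). RAB1A, RAB2A and RAB6A did not pass. RAB1A, which moves vesicles from the ER to the Golgi, averaged 10.64 ± 0.13 in arrays labelled induced and 10.79 ± 0.10 in arrays labelled uninduced. RAB2A averaged 8.30 ± 0.08 in arrays labelled induced and 8.44 ± 0.07 in arrays labelled uninduced. RAB6A averaged 8.34 ± 0.08 in arrays labelled induced and 8.46 ± 0.07 in arrays labelled uninduced. RAB1B missed the threshold (0.20 ± 0.08, adjusted p = 0.0567), although its groups did not overlap. RAB19, RAB36 and RAB43 did not pass. RAB6A has near-identical relatives on the array, so its assignment is uncertain.

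In the last group, 1 of 7 tested genes was higher, 2 lower and 4 did not pass. RAB39A, of phagosomes and lysosomes, had 6.08, 4.80, 6.06 and 5.86 in arrays labelled induced, against 6.45, 6.65, 6.69 and 6.66 in arrays labelled uninduced. It was lower without overlap (-0.91 ± 0.20, 1.88-fold, adjusted p = 0.00262), with the induced array of replicate 2 far under the rest. RAB39B, its paralog, had 7.19, 6.69, 6.59 and 6.83 in arrays labelled induced, against 7.87, 7.76, 7.12 and 6.91 in arrays labelled uninduced. The groups overlapped, and the difference was -0.59 ± 0.14 (adjusted p = 0.00456). RAB40C, which joins a ubiquitin ligase, was higher (0.31 ± 0.10, adjusted p = 0.0197). Dropping replicate 1 or 2 of either label ended that call (adjusted p between 0.0546 and 0.0800). RAB23, RAB28, RAB40A and RAB40B did not pass. RAB40A has a near-identical copy, so its assignment is uncertain.

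Over all 20 tested RAB genes that did not pass, the differences ran from -0.29 to 0.20, and their 95% intervals together spanned -0.57 to 0.37. Differences of 2-fold thus lie outside the intervals of these genes. The 8 genes under the filter were RAB3B, RAB4A, RAB25, RAB27B, RAB31, RAB41, RAB42 and RAB44, with single values from 3.56 to 5.12 over the 8 arrays. RAB27B, the paralog of RAB27A, averaged 4.49 in arrays labelled induced and 5.02 in arrays labelled uninduced. RAB4A, of early recycling, averaged 3.77 in arrays labelled induced and 4.59 in arrays labelled uninduced. Fitted without the filter, RAB4A (-0.82 ± 0.12, adjusted p = 0.000227) and RAB27B (-0.53 ± 0.10, adjusted p = 0.00128) were lower and RAB42 higher (0.31 ± 0.10, adjusted p = 0.0266).

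Exon-level probe sets summarise the same hybridisations, so their agreement in sign is a description and no independent support. Of 31 called RAB genes, 30 had exon-level probe sets matched by symbol, and in all 30 the median of their differences had the sign of the gene-level difference. All 11 probe sets of RAB10, all 9 of RAB14, all 8 of RAB35 and all 5 of RAB9A passed in the gene's direction. RAB27A had 12 of 13 higher and passing, with differences from 0.14 to 3.73. RAB7A had 10 of 11 lower and passing. RAB30 and RAB3D were less even: 5 of 7 probe sets of RAB30 were lower and passing, with its highest difference at 0.04, and 5 of 7 of RAB3D were higher and passing. Of 6 tested probe sets of RAB17 2 passed, with a median of 0.18 and a highest difference of 3.88 over all its probe sets. RAB38 had 5 of 6 lower and passing, with a median of -2.44 against its gene-level difference of -1.501. RAB13 had 4 of 4 lower and passing, from -4.42 to -1.21, the lowest having the same means in both groups as the other gene-level probe set of RAB13. RAB26 differed by -0.92 when its exon-level probe sets were averaged, against -0.50 at gene level, and RAB33B by -0.48, against -0.73. RAB43, which did not pass at gene level, was lower by that mean (-0.51, adjusted p = 0.0371) over 2 probe sets.

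**Figure D3:**
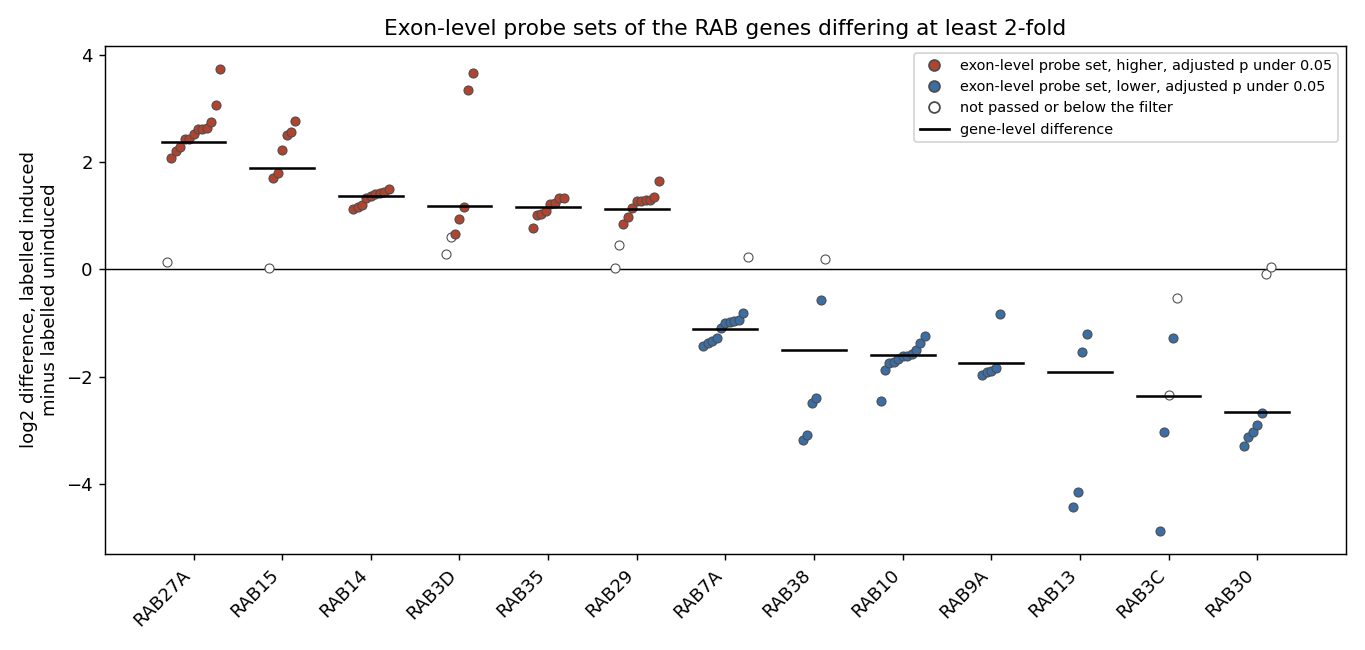
Log2 difference, arrays labelled induced minus arrays labelled uninduced (y axis), of each exon-level probe set (points) of the 13 RAB genes at least 2-fold apart (x axis), filled where the probe set passed the threshold, with a line at the gene-level difference. All 9 points of RAB14 sit between 1.13 and 1.495, while those of RAB3D run from 0.28 to 3.66 and those of RAB3C from -4.87 to -0.53. RAB3C passed the gene-level filter only through its uninduced arrays.

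Between B codes, the RAB genes differed less than between induction labels. Over the 51 tested genes the median absolute difference between B_4 and B_1 was 0.08, against 0.10 over all tested genes. Limma called 0 RAB genes and 0.0% of all tested genes, and 6 RAB genes had an unadjusted p under 0.05, a rule that 13.9% of all tested genes met. The 4 of lowest p were RAB5B (mean 7.80 in B_4 and 8.17 in B_1, difference -0.37 ± 0.08, adjusted p = 0.217), RAB39B (6.86 in B_4 and 7.38 in B_1, -0.51 ± 0.14, adjusted p = 0.245), RAB2B (7.33 in B_4 and 7.59 in B_1, -0.26 ± 0.09, adjusted p = 0.278) and RAB3A (6.22 in B_4 and 6.03 in B_1, 0.20 ± 0.08, adjusted p = 0.329). Without the induced array of replicate 4, RAB39B passed (-0.68, adjusted p = 0.0401). For the last number, limma called 0 RAB genes, with 3 at an unadjusted p under 0.05, and 7.04% of all tested genes met that rule.

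Within the arrays labelled uninduced, 1 RAB gene passed between B codes, where 2.86% of all tested genes did, and 8 had an unadjusted p under 0.05, where 19.4% of all did. That gene was RAB39B, with 7.12 and 6.91 in B_4 and 7.87 and 7.76 in B_1 (-0.80 ± 0.16, adjusted p = 0.0341). Within the arrays labelled induced 0 RAB genes passed by limma, while 0.0652% of all tested genes passed, and 5 RAB genes had an unadjusted p under 0.05, where 8.18% of all did. RAB39B differed there by -0.23 ± 0.16 (adjusted p = 0.739). The test of the difference between these B code effects is the interaction given next.

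The induction differences recurred in both B codes. Within B_4, 28 RAB genes passed, against 46.3% of all tested genes, and within B_1 29 passed, against 48.7%, with 2 arrays against 2 in each. In both B codes 25 RAB genes passed, among them the 13 at least 2-fold apart, and all 31 called genes had the same sign in both. For these counts over both B codes the shares of all tested genes were not computed, so they are not read as particular to the RAB genes. The 31 genes were called on the same 8 arrays, so the shared sign is a description and no independent support. RAB27A differed by 2.46 in B_4 and 2.27 in B_1, and RAB30 by -2.58 in B_4 and -2.75 in B_1. The interaction of induction label and B code was called by limma for 0 RAB genes and 0.297% of all tested genes, with 4 RAB genes at an unadjusted p under 0.05, a rule met by 11.9% of all.

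Those 4 were RAB23, RAB8B, RAB39B and RAB8A. RAB23, a repressor of hedgehog signalling, had 6.02 and 6.001 in induced and 6.57 and 6.64 in uninduced B_4 arrays, and 6.87 and 6.33 in induced and 6.20 and 6.12 in uninduced B_1 arrays. It was thus lower in induced arrays of B_4 (-0.60 ± 0.15, limma adjusted p = 0.00778) and higher in those of B_1 (0.44 ± 0.15, adjusted p = 0.0317), and the difference over both B codes was -0.08. The interaction was -1.04 ± 0.21 (unadjusted p = 0.000637, adjusted p = 0.0862). It passed without the induced array of replicate 2 (-1.30, adjusted p = 0.0389) and was -0.56 as the mean of exon-level probe sets (adjusted p = 0.368). RAB8B differed by -0.60 ± 0.11 in B_4 (adjusted p = 0.00109) and 0.02 ± 0.11 in B_1 (interaction -0.62 ± 0.15, adjusted p = 0.142). RAB8A differed by -0.26 ± 0.11 in B_4 and 0.13 ± 0.11 in B_1 (-0.39 ± 0.16, adjusted p = 0.366), and RAB39B by -0.31 ± 0.16 in B_4 and -0.87 ± 0.16 in B_1 (0.57 ± 0.22, adjusted p = 0.358). Without the induced array of replicate 2 or 4 the RAB39B interaction was 0.33 or 0.31.

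**Figure D4:**
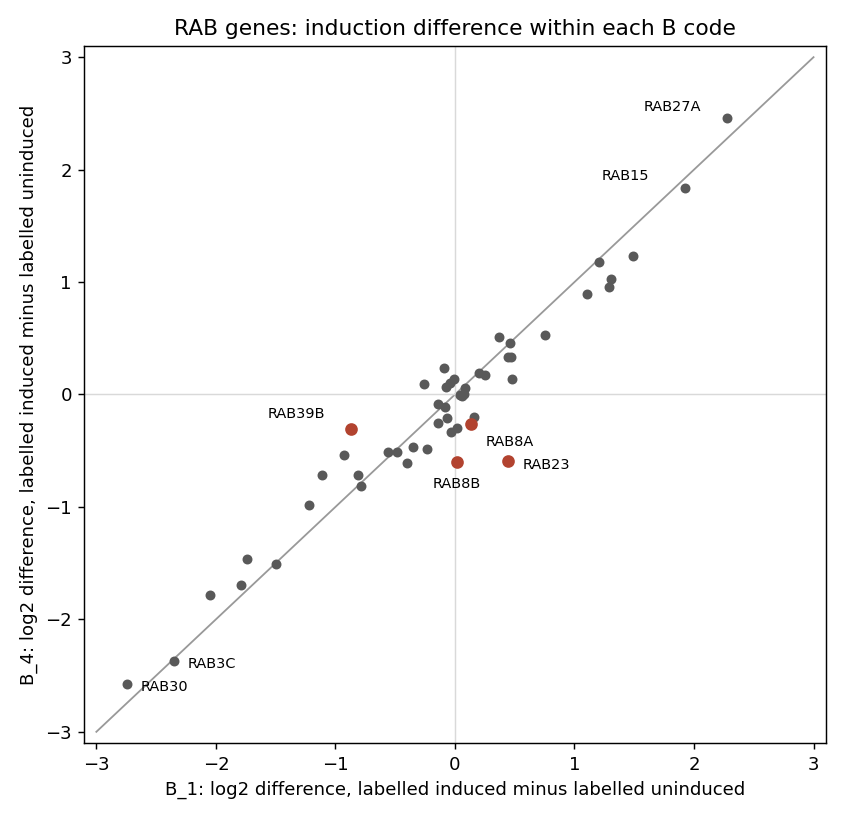
Log2 difference, arrays labelled induced minus arrays labelled uninduced, within B_1 (x axis) and within B_4 (y axis) for the 51 tested RAB genes, each from 2 arrays against 2, with the line of equality. Genes far from 0 lie near the line, and RAB23, at 0.44 in B_1 and -0.60 in B_4, lies farthest below it among the 4 genes of lowest interaction p (red).

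Genes that handle RAB proteins were called in both directions as well. These 4 lists were written with earlier results of these data known. Of 33 tested exchange factors, 11 were higher and 12 lower (69.7% called, against 55.5% of all tested genes), with a median difference of 0.03. Of the 33, 10 were called at 2-fold or more, where 16.5% of all tested genes were. DENND1A, an exchange factor for RAB35, averaged 8.48 ± 0.21 in arrays labelled induced and 6.78 ± 0.14 in arrays labelled uninduced (1.70 ± 0.09). DENND3, an exchange factor for RAB12, averaged 10.06 ± 0.36 in arrays labelled induced and 7.87 ± 0.23 in arrays labelled uninduced (2.20 ± 0.14). DENND5A and DENND2C were lower, at 6.32 ± 0.41 and 3.60 ± 0.09 in arrays labelled induced and 8.86 ± 0.36 and 6.41 ± 0.26 in arrays labelled uninduced (-2.55 ± 0.08 and -2.81 ± 0.12). The induced mean of DENND2C is under the filter limit, so the size of its difference is uncertain.

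Of 34 tested GTPase-activating proteins, most of them with a TBC domain, 17 were higher and 12 lower, with a median of 0.20. Thus 85.3% were called, against 55.5% of all tested genes. At 2-fold or more 12 were called, where 16.5% of all tested genes were. TBC1D1 and TBC1D4, a pair of paralogs that switch off RAB10 and related proteins in muscle and fat, moved in opposite directions. TBC1D1 averaged 9.65 ± 0.12 in arrays labelled induced and 5.996 ± 0.26 in arrays labelled uninduced (3.65 ± 0.10, 12.5-fold higher). TBC1D4 averaged 5.89 ± 0.08 in arrays labelled induced and 8.48 ± 0.16 in arrays labelled uninduced (-2.59 ± 0.09, 6.02-fold lower). SGSM2 was higher (1.595 ± 0.08) and TBC1D22B lower (-1.86 ± 0.11).

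Of 42 tested effectors, 12 were higher and 9 lower (50% called, against 55.5% of all tested genes), with a median of 0.02. At 2-fold or more 7 were called, where 16.5% of all tested genes were. MYO5A, the myosin that carries RAB27A organelles in melanocytes, averaged 9.69 ± 0.11 in arrays labelled induced and 7.82 ± 0.14 in arrays labelled uninduced (1.88 ± 0.09). SYTL2, an effector of RAB27A, averaged 3.88 ± 0.08 in arrays labelled induced and 7.30 ± 0.38 in arrays labelled uninduced (fitted difference -3.42 ± 0.14), with an induced mean under the filter limit. RAB11FIP1 (-2.95 ± 0.12) and WDR44 (-1.66 ± 0.08), both of which bind RAB11, were lower as well. Of 6 tested genes for prenylation and membrane cycling, 2 were higher and 3 lower, with 0 at 2-fold and a median of -0.15. Thus 83.3% were called, against 55.5% of all tested genes, on 6 genes only. CHML, an escort protein for prenylation, was lower (-0.78 ± 0.13), as was RABAC1 (-0.73 ± 0.09), while RABIF (0.42 ± 0.08) and RABGGTA (0.31 ± 0.08) were higher. The genes named from these lists had adjusted p-values of 0.00665 or lower in limma. GDI2, which extracts RAB proteins from membranes, did not pass, with means of 10.98 in arrays labelled induced and 10.97 in arrays labelled uninduced.

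**Figure D5:**
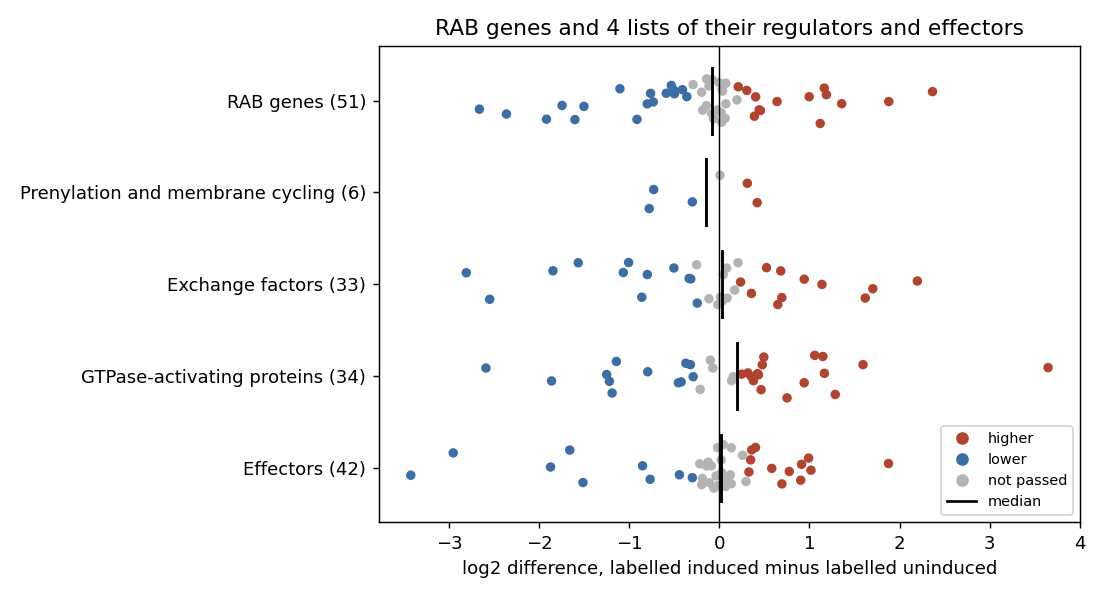
Log2 difference, arrays labelled induced minus arrays labelled uninduced (x axis), of each tested RAB gene and of each tested gene of the 4 lists (rows, number of genes in brackets), coloured by call, with a line at the median. The medians lie between -0.15 and 0.20, and each list holds both rises and falls.

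The genes next to the 13 RAB genes at least 2-fold apart were also examined. Of the 26 nearest tested genes on either side of them, in the RefSeq order of GRCh38.p14, 13 (50%) were called in the same direction, against 46.4% for all 2279 genes at least 2-fold apart. At least 2-fold in the same direction were 6 of 26 (23.1%), against 20.1%. Both neighbours of RAB29 were at least 2-fold higher, and neither neighbour of RAB30, RAB13 or RAB15 was called in its direction.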

How the data were processed

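RNA of 8 arrays was measured, and each array was deposited as a gene-level and an exon-level summary. The values deposited by the authors are on a log2 scale: the submitters' processing notes name RMA and Partek, and that the base is 2 was inferred from values of 2.07 to 14.1. RMA gives all arrays near-equal distributions, so a shift of all genes between groups cannot be seen. Array annotation and build: not given in the sources used here. All 4428 features found in both summaries had identical values (tolerance 0), so exon-level samples were not counted as replicates. The number of arrays limits the precision.

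Of 33297 gene-level probe sets, 19460 carried 1 symbol, 1754 several and 12083 none. Symbols were brought up to date with RefSeq identifiers. Probe sets with several symbols (those of RAB4B, RAB6C and RAB34 among them) and pseudogenes were left out. Each of 18395 genes kept its probe set of highest mean, and genes under the 25th percentile (4.78) were not tested. Limma 3.58.1 (R 4.3.3) fitted induction label, B code and last number (4 residual degrees of freedom). A model with a mean for each pairing of label and B code, plus last number, gave the effects within B codes and the interaction (3 residual degrees of freedom). The code was tested on simulated data, and matplotlib 3.10.9 under Python 3.11.15 drew the figures.

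Full values are given for RAB genes that passed at 2-fold or more, for the 2 of lowest p in each role group, for the 4 of lowest p between B codes and in the interaction, and for the 4 of lowest p in each list. Members, role groups and lists were chosen with earlier results of these data known, and the other genes named were chosen after their values were seen. Alternatives covered the filter, normalisation, probe set choice, variance model, threshold, covariates, a replicate block and leaving out each array.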

Additional observations from a re-analysis of the deposited data

Results flagged for a closer look

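In 118 groups of 4 arrays (59 RAB genes, 2 labels), 6 held an array far from the others, where the gap to the nearest value, as a share of the group's range, exceeded Dixon's 95% critical value. Chance flags about 1 in 20 groups. RAB39A had such an array in both groups: 4.80 in the induced array of replicate 2, against 5.86 to 6.08 in the other induced arrays, and 6.45 in the uninduced array of replicate 1, against 6.65 to 6.69 in the other uninduced arrays. RAB12 had 7.22 in the induced array of replicate 3, against 7.62 to 7.65 in the others. RAB24 had 8.48 in the uninduced array of replicate 2, against 8.24 to 8.27 in the others. RAB40B had 5.69 in the induced array of replicate 1, against 6.06 to 6.08 in the others, and RAB6B had 5.05 in that same array, against 5.29 to 5.33 in the others.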

How the results depend on the processing

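Each called RAB gene was tested under 17 to 20 other settings, since the filter at the median and the exon-level means do not cover all of them. In those, 27 of 31 kept their call and 0 changed sign; RAB11B, RAB17, RAB21 and RAB40C lost theirs under at least 1. RAB11B was lost also with quantile normalisation (adjusted p = 0.0519), and its difference was 0.36 under median centring. Leaving out each array in turn gave 11 to 13 RAB genes called higher, 17 to 18 lower, 0 to 1 between B codes and 0 to 1 for the interaction, and a RELB difference from -0.22 to -0.07. RELB turned to 0.0019 under median centring. The interaction count was 1 (RAB23) with a variance trend and robust fitting and at a threshold of 0.1. Of the 20 RAB genes that did not pass, 14 changed sign under at least 1 alternative and 5 were called under at least 1, RAB1B under 6. The other RAB13 probe set was an alternative added after seeing the data, and the mean of both RAB13 probe sets differed by -3.17. Arrays sharing B code and last number deviated together only weakly (correlations of -0.02 to 0.16 over genes, 1 of 4 arrays closest to its own number). With 4 arrays a group, these correlations cannot decide whether such arrays were paired. With the replicate block as a fixed term, 13 RAB genes were higher and 17 lower, RAB11B being lost (adjusted p = 0.0713), and with it as a random term 15 and 17. Dim signal limits the size of the difference for 9 called RAB genes whose mean in one group is under the lowest array median (RAB3C, RAB6B, RAB9B, RAB15, RAB17, RAB30, RAB38, RAB39A and RAB3D), and for the 8 under the filter.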
